A study of Mus musculus with 22 samples.

Results

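Imprinted growth genes are transcribed mainly from 1 parental allele and adjust how much an embryo grows. The 9 genes described here, Igf2, H19, Dlk1, Meg3, Cdkn1c, Grb10, Peg3, Mest and Plagl1, were chosen by name, and each was found among the 26202 gene symbols of the deposited count table of the developing mouse trachea. RNA was measured in 18 libraries. At E11.5, whole tracheas were taken from 5 control pools (Wnt5a f/f) and 4 mutant pools (Dermo1Cre; Wnt5a f/f), with 5 tracheas in a pool. Dermo1Cre acts in the mesenchyme, so the epithelium of these whole tracheas kept Wnt5a. At E13.5, cells were sorted from tracheas carrying the γSMA eGFP reporter into EpCAM-positive epithelium (n = 2), GFP-positive muscle (n = 2) and cells negative for both, which the study calls chondroblasts (n = 2 for controls and n = 3 for Notum 150/150 mutants). The labels give the sorted controls as Bmp4 f/f or Notum 300/300, both with the reporter, and the columns do not say which genotype each control library has. Only 1 of the 3 labels of each sorted control group gives Notum 300/300. At least 1 of the 2 libraries in each of these groups is therefore Bmp4 f/f. The 2 control libraries of each sorted population carry an earlier (A) and a later (B) date in their names, and all 3 Notum mutant libraries carry the later date. Mutants B and C share a further number in their names, and whether they come from separate litters is not given. E11.5 libraries are named here by the number in their column names.

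Imprinted genes sit in clusters that share a control region, methylated on only 1 parental chromosome. Paternally expressed members tend to promote growth and maternally expressed members tend to restrain it. Igf2, a growth factor, and Dlk1, a membrane protein related to Notch ligands, are read from the paternal allele, whereas their neighbours H19 and Meg3, both noncoding RNAs, are read from the maternal one. These sequencing counts carry no allele, so whether a gene was expressed from 1 allele or from both was not measured.

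Igf2 (GRCm38 chromosome 7, 142650766 to 142666816) and H19 (142575529 to 142578143) lie on the minus strand with 72.6 kb between them. Dlk1 (chromosome 12, 109452823 to 109463336) and Meg3 (109541001 to 109571726) lie on the plus strand, 77.7 kb apart. Cdkn1c (143458339 to 143461050) and Peg3 (6703892 to 6730431) are both on the minus strand of chromosome 7. Grb10 is on chromosome 11 (11930508 to 12038683, minus strand), Mest on chromosome 6 (30723547 to 30748465, plus strand) and Plagl1 on chromosome 10 (13060504 to 13131694, plus strand). Opposite-strand genes overlap some of them in the GENCODE annotation, such as Igf2os at Igf2 and Copg2 at Mest, and reads of such partners cannot be told apart because the library kit does not mark strand.

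Promoters are shown for Dlk1, Meg3, Peg3 and Mest, which were low in epithelium, and for Grb10, whose level hardly differed among the sorted controls. RefSeq (GRCm38.p6) gave 14 promoters of 300 bases for 7 of the 9 members. Capitals mark CpG dinucleotides, the sites that carry DNA methylation, and each sequence is read 5′ to 3′ on the gene's strand.
Dlk1, chr12:109452573-109452872, plus strand: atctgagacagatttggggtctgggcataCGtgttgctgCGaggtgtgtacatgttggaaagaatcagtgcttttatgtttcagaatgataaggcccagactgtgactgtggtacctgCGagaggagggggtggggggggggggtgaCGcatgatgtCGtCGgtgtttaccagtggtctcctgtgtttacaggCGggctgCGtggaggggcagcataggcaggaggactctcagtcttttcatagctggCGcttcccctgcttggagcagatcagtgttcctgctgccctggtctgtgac
Meg3, chr12:109540746-109541045, plus strand: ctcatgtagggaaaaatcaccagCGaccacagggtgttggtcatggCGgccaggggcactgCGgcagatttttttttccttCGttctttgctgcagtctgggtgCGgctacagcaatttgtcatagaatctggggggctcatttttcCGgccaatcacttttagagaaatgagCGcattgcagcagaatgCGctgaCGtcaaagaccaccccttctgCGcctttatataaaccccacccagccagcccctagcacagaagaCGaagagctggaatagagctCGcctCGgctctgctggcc
Peg3, chr7:6730370-6730669, minus strand: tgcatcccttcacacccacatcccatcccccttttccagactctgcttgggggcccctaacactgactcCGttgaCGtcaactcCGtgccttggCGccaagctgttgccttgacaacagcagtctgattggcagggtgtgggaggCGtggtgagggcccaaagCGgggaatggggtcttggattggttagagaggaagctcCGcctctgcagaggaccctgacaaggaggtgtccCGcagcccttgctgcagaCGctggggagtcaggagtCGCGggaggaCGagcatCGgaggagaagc
Mest, chr6:30737800-30738099, plus strand: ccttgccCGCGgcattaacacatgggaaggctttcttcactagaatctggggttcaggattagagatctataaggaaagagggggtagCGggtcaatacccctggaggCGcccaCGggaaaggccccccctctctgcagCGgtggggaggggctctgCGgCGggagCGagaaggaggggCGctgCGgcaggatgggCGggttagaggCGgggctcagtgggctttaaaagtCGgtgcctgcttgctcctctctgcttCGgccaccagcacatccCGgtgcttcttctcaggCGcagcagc
Grb10, chr11:12037371-12037670, minus strand: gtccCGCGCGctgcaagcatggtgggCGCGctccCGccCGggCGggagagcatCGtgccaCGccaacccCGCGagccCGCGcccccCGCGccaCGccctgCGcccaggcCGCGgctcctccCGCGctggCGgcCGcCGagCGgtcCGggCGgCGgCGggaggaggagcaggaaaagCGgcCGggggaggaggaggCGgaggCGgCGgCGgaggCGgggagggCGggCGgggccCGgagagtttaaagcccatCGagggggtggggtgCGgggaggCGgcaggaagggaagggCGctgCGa

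The promoters shown held 9 CpG for Dlk1, 13 for Meg3, 13 for Peg3 and 17 for Mest, beside a median of 7 over 32851 mouse promoters of the same length. That of Grb10 held 45 and was at or above 98.4% of them. Other start sites of these genes differed, with 9 CpG at a second Grb10 promoter, 1 at a second Meg3 promoter, and 8 and 17 at the other Mest promoters. Which start sites were used was not measured. The palindrome GGGGCCCC was in the Peg3 promoter only among the 14, and in 1.08% of all promoters. TATAAA, on either strand, was in 1 member promoter, that of Meg3, and in 13.6% of all.  A match here is a string of letters and not a measured binding site.

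H19 and Mest also hold microRNAs on their own strand, shown because these hosts had the highest levels per exon length of the 9 in E11.5 controls and in control chondroblasts; those of Igf2 and Meg3 are not shown. Capitals mark the seed, bases 2 to 8, and U is written as in RNA. The poly(A)-selected libraries did not measure the mature microRNAs, and no seed is shared among these 4.
mmu-miR-675-5p (in H19, chr7:142577112-142577133, minus strand): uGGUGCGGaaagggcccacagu
mmu-miR-675-3p (in H19, chr7:142577078-142577099, minus strand): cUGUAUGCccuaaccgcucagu
mmu-miR-335-5p (in Mest, chr6:30741314-30741336, plus strand): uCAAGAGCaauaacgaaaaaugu
mmu-miR-335-3p (in Mest, chr6:30741354-30741375, plus strand): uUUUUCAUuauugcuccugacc

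Total counts ran from 6880665 to 21678194 per library, and levels are given as CPM, counts scaled to a common library total with TMM. The 10 epithelial markers summed to 3856 and 4739.8 CPM in epithelium and to at most 52.1 CPM in the other sorted libraries, and the 9 smooth muscle markers to 11428 and 14687 CPM in muscle. The 9 cartilage markers summed to 2852 and 3363 CPM in control chondroblasts, but also to 890.3 and 2250.3 CPM in muscle. Skeletal muscle markers summed to 828.5 CPM in muscle A and 93.4 CPM in muscle B, and endothelial markers to at most 98.8 CPM in any sorted control. Macrophage markers were at 239.8 CPM in epithelium A and 1.11 CPM in epithelium B, beside 212 and 97.4 CPM in control chondroblasts A and B. Red cell genes summed to 79095 CPM in control chondroblasts A and to 7986 CPM in B. The targeted transcripts did not separate the genotypes: Wnt5a was 46.3 to 126 CPM in the E11.5 mutants and 62.1 to 159 CPM in controls, and Notum was 13.7 to 35.3 CPM in Notum mutant chondroblasts and 13.7 and 86 CPM in controls. In bulk RNA, fewer cells of a type cannot be told apart from less RNA per cell.

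Together the 9 genes took 0.932% to 1.06% of the counts in muscle, control chondroblasts and Notum mutant chondroblasts, 0.373% and 0.445% in epithelium, and 0.455% to 0.729% at E11.5. Compared per length of merged exons, H19 was highest in each E13.5 group, with a mean of 1299 ± 207 CPM per kb (SD, n = 2) in control chondroblasts and 1633 ± 67 (n = 2) in muscle. At E11.5, Mest, an enzyme of the α/β-hydrolase family, stood above H19, at 732 ± 73.1 CPM per kb in controls (n = 5) against 488 ± 86.5. Meg3 was lowest in every group, with a mean of 4.58 ± 1.77 CPM per kb in E11.5 controls and 9.28 ± 2 in control chondroblasts. This length scale counts all annotated exons, which for Meg3 come to 15.7 kb and for H19 to 2.29 kb, so the low Meg3 value depends on which of its exons were used.

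**Figure D1:**
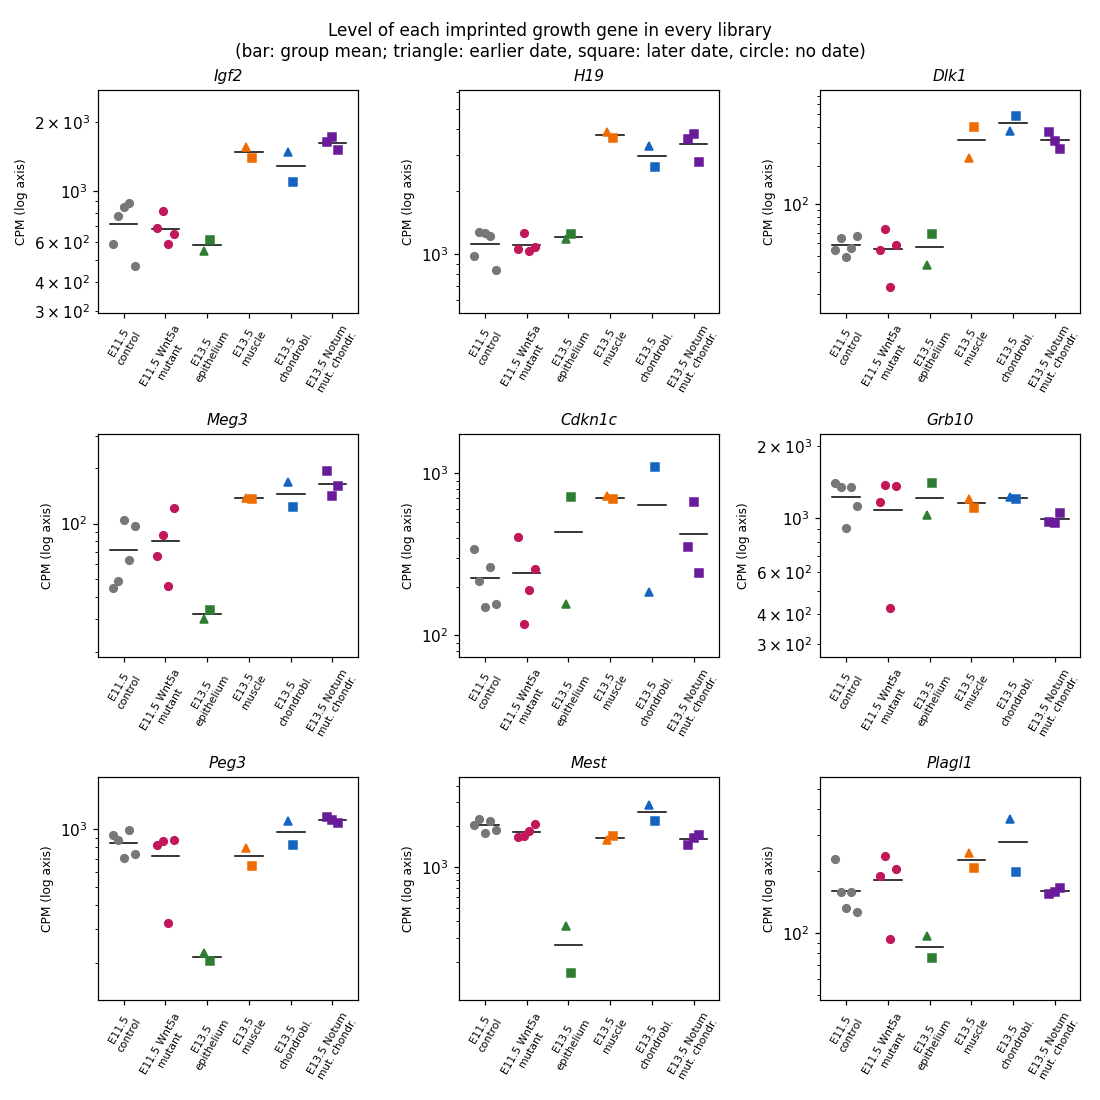
Each panel shows 1 gene, with its level in CPM on a log axis for every library in the 6 groups; bars are group means, triangles the earlier date, squares the later date and circles libraries with no date. Igf2, H19, Dlk1 and Meg3 lie low in epithelium and high in muscle and chondroblasts, Cdkn1c splits by date in epithelium and chondroblasts, and Grb10 varies little apart from E11.5 mutant 17, its lowest point.

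The sorted controls were compared to ask which tracheal cells carry these transcripts at E13.5. Of the 9 genes, 6 were called lower in epithelium than in chondroblasts, namely Mest, Dlk1, Meg3, Peg3, H19 and Igf2, beside 1.72% of all genes. The same 6 were called lower in epithelium than in muscle, beside 2.41% of all genes. No member was called between muscle and chondroblasts, where 0.132% of all genes were. In simulated counts for that comparison, edgeR recovered 17 of 200 genes changed 4-fold, so large differences can be missed. Against chondroblasts the differences were 9.33-fold for Mest and 9.1-fold for Dlk1, and the smallest of the 6 was that of Igf2, 2.2-fold.

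Igf2 was 545 and 612 CPM in epithelium A and B, 1479 and 1094 CPM in control chondroblasts, and 1549 and 1399 CPM in muscle. Both epithelial libraries lay below all of the others. The difference was −1.13 ± 0.19 on the log2 scale against chondroblasts (SE, edgeR adjusted p = 0.0352) and −1.34 ± 0.19 against muscle (adjusted p = 0.0185). H19, transcribed from the maternal allele and a host of miR-675, was 1176 and 1253 CPM in epithelium, 3305 and 2635 CPM in chondroblasts, and 3841 and 3625 CPM in muscle. Both epithelial values of H19 were below every mesenchymal one. Its log2 differences in edgeR were −1.27 ± 0.15 (adjusted p = 0.013) and −1.61 ± 0.15 (adjusted p = 0.00517).

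Dlk1 was 33.5 and 59.3 CPM in epithelium, 369 and 485 CPM in chondroblasts, and 228 and 402 CPM in muscle. The groups did not overlap between epithelium and either population, and muscle and chondroblasts overlapped. The difference for Dlk1 was −3.19 ± 0.40 against chondroblasts (edgeR adjusted p = 0.0158) and −2.76 ± 0.40 against muscle (adjusted p = 0.0196). Meg3 was 30.1 and 33.9 CPM in epithelium, 168 and 123 CPM in chondroblasts and 138 and 136 CPM in muscle. Like its neighbour Dlk1 it was lowest in epithelium, with edgeR differences of −2.17 ± 0.25 (adjusted p = 0.013) and −2.09 ± 0.25 (adjusted p = 0.0121).

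Peg3, a zinc finger protein, was 225 and 205 CPM in epithelium, 1106 and 826 CPM in chondroblasts, and 797 and 644 CPM in muscle. The epithelial pair lay far below the others, with differences of −2.15 ± 0.21 against chondroblasts (edgeR adjusted p = 0.00972) and −1.74 ± 0.21 against muscle (adjusted p = 0.0121). Mest was 369 and 166 CPM in epithelium, 2866 and 2197 CPM in chondroblasts, and 1582 and 1705 CPM in muscle. Its epithelial libraries were unlike each other, yet both were below every mesenchymal library. The edgeR differences were −3.22 ± 0.39 (adjusted p = 0.0143) and −2.61 ± 0.38 (adjusted p = 0.0205).

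Plagl1, a zinc finger transcription factor, was 96.7 and 75.4 CPM in epithelium, 357 and 197 CPM in chondroblasts and 245 and 207 CPM in muscle. The groups did not overlap, but the difference of −1.67 ± 0.32 against chondroblasts did not pass the test (edgeR adjusted p = 0.0575), nor did that against muscle (−1.38 ± 0.32, adjusted p = 0.0814). DESeq2, the fit without a filter, the fit of all 18 libraries and the date term called Plagl1 lower against both populations, and voom against chondroblasts. Summing entries mattered for this gene, since its largest entry held 23% of its counts in epithelium B and up to 86.8% elsewhere. Grb10, an adaptor that restrains insulin and IGF receptor signalling, was 1033 and 1398 CPM in epithelium, 1224 and 1203 CPM in chondroblasts, and 1209 and 1105 CPM in muscle. All 3 populations overlapped, with differences between −0.06 and 0.08.

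Cdkn1c encodes p57, an inhibitor of cyclin-dependent kinases. It was 155 CPM in epithelium A and 713 CPM in epithelium B, 186 CPM in chondroblasts A and 1093 CPM in chondroblasts B, and 724 and 689 CPM in muscle A and B. Both libraries of the earlier date were low in epithelium and chondroblasts and both later ones high, whereas muscle did not differ by date in this way. The pooled differences have large errors, −0.55 ± 0.90 for epithelium against chondroblasts and 0.15 ± 0.90 for muscle against chondroblasts. For epithelium against muscle the difference was −0.70 ± 0.90 and was not called. With no filter on low counts, edgeR called Cdkn1c lower in epithelium than in muscle (adjusted p = 0.0353). Within the earlier date muscle exceeded chondroblasts by 1.96, and within the later date the value was −0.66.

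Of the 9 members, 6 were called lower in epithelium than in chondroblasts at an adjusted p under 0.05, and 1.72% of the 13687 genes tested were called lower (2.74% in either direction). Against muscle it was again 6 of 9, where 2.41% of all genes were lower (3.58% in either direction). Without overlap, 7 of 9 were lower than in chondroblasts and 7 lower than in muscle, where 28.5% and 27.5% of all genes were. Between muscle and chondroblasts edgeR called 0 of 9 members and 0.132% of all genes, 0 members had an unadjusted p under 0.05 (H19 was closest, at 0.0566), and DESeq2 called 0. H19 was higher in muscle without overlap and Peg3 and Mest lower, 3 of 9 where 40.4% of all genes did not overlap. The median log2 difference over the 9 was −1.67 for epithelium against chondroblasts, beside −0.02 over all genes, and −1.61 against muscle, beside −0.03. A term for the date called 6 members against chondroblasts, with Plagl1 gained and Igf2 lost, and 7 against muscle. Over all genes it called 298 and 398. Igf2 was not called against chondroblasts whichever single library was left out, with log2 differences from −1.32 to −0.89. With either chondroblast library left out, none of the 6 stayed called against chondroblasts, and most calls over all genes were lost too. Leaving out muscle A kept H19 and Dlk1 against muscle, and leaving out muscle B kept H19 and Peg3.

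**Figure D2:**
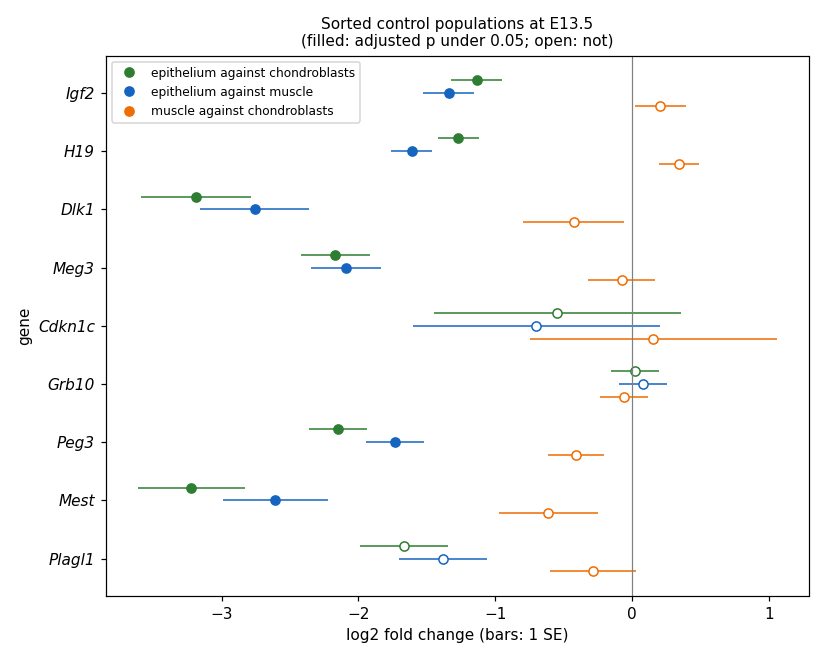
The log2 fold change of each gene is plotted with a bar of 1 SE for 3 comparisons of the sorted controls; filled circles passed an adjusted p of 0.05 and open ones did not. Mest and Dlk1 lie farthest to the left, at −3.22 and −3.19 for epithelium against chondroblasts, while Grb10 sits within 0.08 of 0 in all 3 comparisons and Cdkn1c has the widest bars.

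For these 6 genes epithelium did not overlap either population, so the sign of the within-date values could not differ between dates. Only their size could. Against chondroblasts, Mest differed by −2.96 on the earlier date and −3.72 on the later one, Dlk1 by −3.45 and −3.03, and Igf2 by −1.44 and −0.84. Mesenchymal markers were lower in epithelium as well, the cartilage list at 367 and 421 CPM and the smooth muscle list at 88.3 and 102 CPM. The dissociation stress list, by contrast, was highest there (10446 and 14175 CPM, against 3412 to 8029.7 CPM in the other sorted controls), and 3 of its 9 genes, Atf3, Egr1 and Jun, were called higher than in chondroblasts. The part of any of these lists in the member values was not tested.

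The remaining genes of the same pathways showed fewer calls, but other imprinted genes were lower in epithelium too. The paternally expressed list summed to 731 and 840 CPM there and to 1384 and 1407 CPM in chondroblasts. The maternally expressed list summed to 926 and 1055 CPM and to 1688 and 1383 CPM. Without overlap, 5 of 15 paternally and 6 of 12 maternally expressed genes were lower than in chondroblasts, with 1 of each higher. Of all genes, 28.5% were lower without overlap. Of 15 tested paternally expressed imprinted genes outside the 9, 1 was called against chondroblasts, Ndn, a MAGE-family regulator of growth, at 164 ± 19.5 CPM in epithelium and 354 ± 33.2 CPM in chondroblasts (both n = 2; −1.09 ± 0.19, edgeR adjusted p = 0.0423). Nnat, which encodes a small membrane proteolipid, joined Ndn against muscle (279 ± 41.7 against 863 ± 45.2 CPM; −1.62 ± 0.26, edgeR adjusted p = 0.0271). Of 12 maternally expressed ones, 1 was called in each comparison, the tetraspanin gene Cd81 (−1.22 ± 0.21 against chondroblasts, edgeR adjusted p = 0.0367). In the IGF axis, 2 of 14 were called, both lower in epithelium: Igf1, a ligand of the same receptor as Igf2 (83.2 ± 9.99 CPM against 583 ± 83.8 in chondroblasts, −2.79 ± 0.26, edgeR adjusted p = 0.00841), and Igfbp4, which binds IGFs outside the cell (157 ± 2.19 against 1070.3 ± 541 CPM, −2.75 ± 0.38, adjusted p = 0.0226). None of 8 tested genes that maintain imprints, such as Dnmt1, Trim28 and Ctcf, was called in these 3 comparisons.

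The Notum comparison asks how chondroblasts change when this Wnt-inactivating enzyme is lost. At an adjusted p under 0.05, edgeR called 0 of the 9 members and 0% of the 14120 genes tested, while 12.5% of genes (1762) had an unadjusted p under 0.05. Mest and Plagl1 had the most negative differences with p under 0.05. DESeq2 called 526 genes and 1 member, Mest (adjusted p = 0.00242). In simulated counts for this comparison, DESeq2 made 61 false calls beside 157 true ones, and edgeR made 4 beside 127.

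Mest was 2866 and 2197 CPM in control chondroblasts A and B and 1468, 1631 and 1721 CPM in Notum mutants A, B and C. All 3 mutants lay below both controls. The log2 difference was −0.63 ± 0.13, with an unadjusted p of 0.00256 and an edgeR adjusted p of 0.243. Plagl1 was 357 and 197 CPM in the controls and 155, 159 and 167 CPM in the mutants, which were close together and below both controls. Its difference was −0.76 ± 0.23 (unadjusted p = 0.0149, edgeR adjusted p = 0.313).

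Grb10 was 1224 and 1203 CPM in controls and 964, 958 and 1055 CPM in mutants, a difference of −0.27 ± 0.09 (unadjusted p = 0.0213, edgeR adjusted p = 0.331). Dlk1 was 369 and 485 CPM in controls and 364, 310.2 and 269.7 CPM in mutants, a difference of −0.42 ± 0.18 (edgeR adjusted p = 0.403). Both genes were lower in all mutants, though Dlk1 in mutant A was only just below control A. Igf2 went the other way, at 1479 and 1094 CPM in controls and 1630.2, 1726 and 1508 CPM in mutants (0.36 ± 0.14, unadjusted p = 0.04, edgeR adjusted p = 0.374).

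H19 (3305 and 2635 CPM in controls; 3589.8, 3786 and 2764 CPM in mutants), Meg3 (168 and 123; 193, 142 and 159.7 CPM) and Peg3 (1106 and 826; 1157, 1108 and 1077 CPM) overlapped between genotypes, with differences from 0.20 to 0.23. Cdkn1c was 353, 665 and 242 CPM in the mutants, between its 2 controls. Thus 5 of the 9 did not overlap, 1 higher and 4 lower, where 33.9% of all genes did not overlap in groups of this size. At an unadjusted edgeR p under 0.05 with a fold over 1.5, the study's cutoffs on p and fold without its DESeq2 test and FPKM filter, 2 members passed, both lower, with 2.9% of all genes lower and 8.41% in either direction. The median over the 9 was −0.27, beside 0.02 over all genes.

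Only control B shares the date of the mutants, so the date and the genotype cannot be told apart in a comparison with control A. Either control may be Bmp4 f/f, so mouse line may also differ from the mutants in a comparison with control A or B. Against control B alone, the mutant mean differed by −0.45 for Mest, −0.30 for Plagl1, −0.28 for Grb10, −0.64 for Dlk1 and 0.56 for Igf2. Against control A alone the values were −0.84, −1.16, −0.30, −0.24 and 0.13. These are the 5 genes whose groups did not overlap, so their sign could not differ between the controls. Of the others, H19 was 0.35 against control B and 0.02 against control A, Peg3 was 0.43 and 0.01, Meg3 was 0.41 and −0.04, and Cdkn1c was −1.51 and 1.05. Leaving out control A or B leaves the other control alone in its group, so only the mutants then give a spread. A call from such a fit rests on that control library only.

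**Figure D3:**
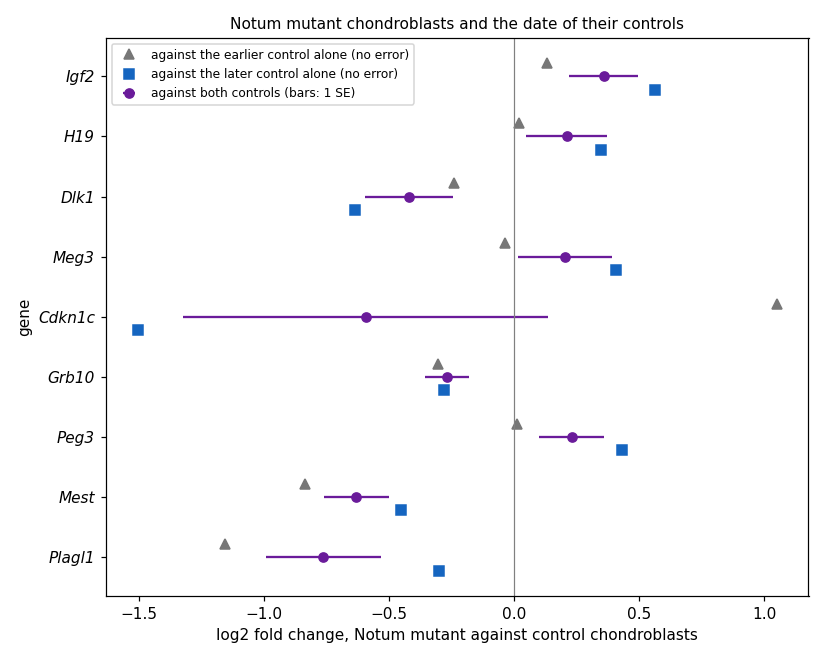
For each gene, the log2 fold change of Notum mutant against control chondroblasts is plotted against both controls with 1 SE, and against the earlier and later control alone with no error. The values against the 2 controls lie far apart for Cdkn1c, at −1.51 and 1.05, and for Plagl1, at −0.30 and −1.16, and close together for Grb10, at −0.28 and −0.30.

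Red cell genes summed to 7647 to 10341 CPM in the mutants, close to control B (7986 CPM) and below control A (79095 CPM). The 6 macrophage markers summed to 279 to 409 CPM in the mutants and to 97.4 and 212 CPM in controls, and cartilage markers to 3739.6 to 4704 CPM against 2852 and 3363 CPM. The part of any of these in the member values was not tested. Leaving red cell genes out of the library totals left 0 members called. Among other imprinted genes, 0 of 18 paternally and 0 of 14 maternally expressed ones passed, the smallest p being that of Klf14 (0.688 against 5.27 CPM; −2.91 ± 0.97, unadjusted p = 0.023, edgeR adjusted p = 0.336), and Igfbp5, an IGF-binding protein, had the smallest p in the IGF axis (1462 ± 48.8 CPM, n = 3, against 1077 ± 93.8, n = 2; 0.46 ± 0.09, unadjusted p = 0.00185, edgeR adjusted p = 0.239). Of 8 imprint maintenance genes 0 passed, Dnmt1 being closest (0.43 ± 0.13, unadjusted p = 0.0166, edgeR adjusted p = 0.317).

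The E11.5 comparison asks how whole tracheas change when Wnt5a, a ligand of the non-canonical Wnt pathway, is deleted in the mesenchyme. No member was called by edgeR or DESeq2, and all 9 overlapped between control and mutant pools, as did all but 1.2% of genes. The values differed by at most 0.23 on the log2 scale (Peg3), and the median over the 9 was −0.07, beside −0.02 over all genes. edgeR called 2 of 14663 genes, 0.0136%, and 4.58% had an unadjusted p under 0.05, with 0 members among them.

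Igf2 was 589, 779.6, 848, 890.2 and 469.9 CPM in controls 7, 13, 16, 17 and 18, and 689, 820.1, 584 and 648 CPM in mutants 7, 13, 17 and 18. The mutants lay inside the range of the controls (−0.07 ± 0.20, edgeR adjusted p = 1). H19 was 978, 1282, 1259.7, 1218 and 836 CPM in the controls and 1059, 1267, 1040.5 and 1076 CPM in the mutants, and it differed by −0.01 ± 0.15. Mest was 2038, 2273, 1779, 2180.0 and 1888 CPM in controls and 1663, 1695, 1851 and 2088 CPM in mutants. Of the mutants, 3 were below the control median, and Mest had the smallest p of the 9, at 0.227 (−0.16 ± 0.12).

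Peg3 was 931, 877, 702, 985 and 741 CPM in controls and 827, 869.9, 323 and 875 CPM in mutants. Grb10 was 1408, 1353, 915, 1353 and 1128 CPM in controls and 1169, 1383, 426 and 1371 CPM in mutants. Mutant 17 was the lowest library for both genes, and the other 3 mutants lay among the controls. Without mutant 17, the differences moved from −0.23 to 0.01 for Peg3, from −0.18 to 0.08 for Grb10 and from −0.10 to 0.11 for Dlk1. That library also had the highest sums of neural and glial markers (513 CPM, against 59.9 to 262 in the other E11.5 libraries) and epithelial markers (792 CPM, against 310.2 to 483) and the lowest sum of cartilage markers (238 CPM, against 282 to 1012). Whether tissue composition had a part in its low Peg3 and Grb10 was not tested.

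Dlk1 was low throughout at E11.5, from 38.9 to 56.5 CPM in controls (median 46) and from 23 to 64.2 CPM in mutants. Meg3 ranged from 44.8 to 105 CPM and from 45.8 to 122 CPM, Cdkn1c from 151 to 341 CPM and from 118 to 405 CPM, and Plagl1 from 127 to 229 CPM and from 93.5 to 238 CPM. Each range in mutants spanned most of that in controls. Among other lists, 0 of 17 paternally and 0 of 16 maternally expressed imprinted genes, 0 of 12 IGF axis genes and 0 of 8 imprint maintenance genes were called. Nnat had an unadjusted p of 0.00992 (757 ± 76.4 against 574 ± 65.4 CPM), with an edgeR adjusted p of 1. Klf14, a low-count maternally expressed gene for a Krüppel-like factor, had an unadjusted p of 0.00803 (0.325 ± 0.211 against 1.75 ± 1.37 CPM; −2.35 ± 0.73, edgeR adjusted p = 1).

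Control chondroblasts at E13.5 were set against control tracheas at E11.5, the stages between which tracheal mesenchyme begins to condense. Dlk1 rose from 48 ± 7.45 CPM (n = 5) to 427 ± 82.2 CPM (n = 2), the most of the 9 (3.15 ± 0.19, edgeR adjusted p = 0.000137). H19 rose from 1115 ± 198 to 2969.7 ± 474 CPM (1.41 ± 0.20, edgeR adjusted p = 0.00386). Thus 2 of 9 members were called, both higher, with 7.01% of 14728 genes called higher and 12.5% in either direction. Age, sorting, whole tissue and mouse line cannot be told apart in this comparison.

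The lowest Dlk1 value in chondroblasts, 369 CPM, was far above the highest E11.5 control, 56.5 CPM. For H19 the nearest values were 2635 and 1282 CPM. Igf2 (0.85 ± 0.26, edgeR adjusted p = 0.0639), Meg3 (1.02 ± 0.35, adjusted p = 0.0859), Plagl1 (0.79 ± 0.27, adjusted p = 0.0918) and Cdkn1c (1.5 ± 0.54, adjusted p = 0.101) had positive values that did not pass, and DESeq2 called all 4 of these with Dlk1 and H19. With Igf2 and Meg3, 4 of 9 members were higher without overlap, where 17.2% of all genes were. Mest (0.32 ± 0.16), Peg3 (0.19 ± 0.19) and Grb10 (−0.02 ± 0.19) overlapped. The median over the 9 was 0.85, beside −0.05 over all genes.

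Sorted epithelium at E13.5 had H19 (1176 and 1253 CPM) within the range of whole E11.5 controls, Dlk1 (33.5 and 59.3 CPM) to either side of that range, and Mest (369 and 166 CPM) and Peg3 (225 and 205 CPM) below it. These values are given side by side and were not tested.

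**Figure D4:**
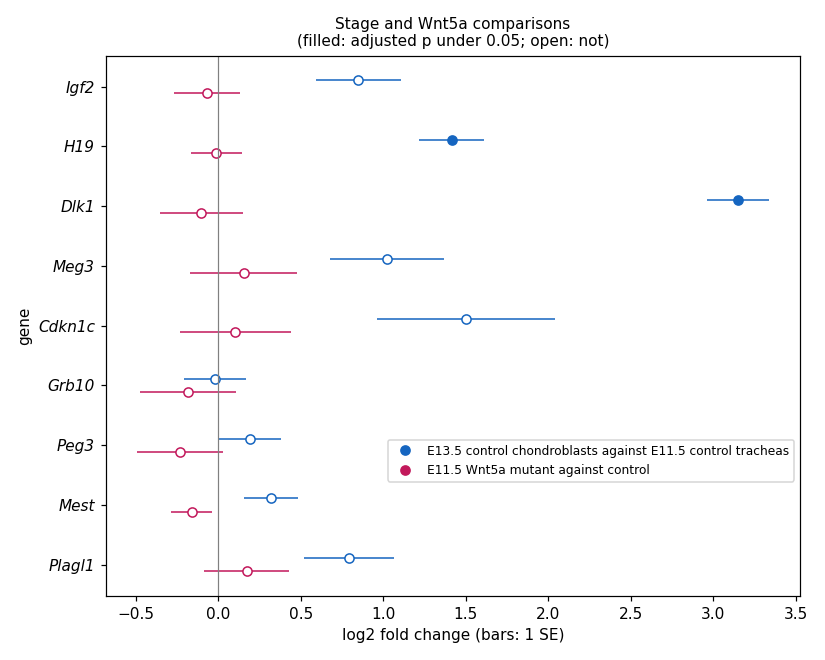
Log2 fold changes with 1 SE are plotted for E13.5 control chondroblasts against E11.5 control tracheas and for E11.5 Wnt5a mutants against controls; filled circles passed an adjusted p of 0.05. Dlk1 at 3.15 and H19 at 1.41 are the filled points, and all 9 Wnt5a values lie within 0.23 of 0.

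In the same stage comparison, 4 of 16 tested maternally expressed imprinted genes were higher and 2 lower, while 0 of 17 paternally expressed ones were called. Rian, a noncoding RNA of the Dlk1-Meg3 cluster, was called at 21.5 ± 5.15 CPM in chondroblasts against 10.2 ± 1.53 (1.07 ± 0.27, edgeR adjusted p = 0.034). Phlda2, a maternally expressed gene of the Cdkn1c cluster, was called too (6.43 ± 4.13 against 1.29 ± 0.361 CPM; 2.33 ± 0.54, edgeR adjusted p = 0.027), as was Zim1, next to Peg3 (22.8 ± 11.6 against 9.81 ± 1.13 CPM; 1.21 ± 0.31, adjusted p = 0.0396). Calcr, the calcitonin receptor gene, and Slc22a3, an organic cation transporter, were lower, with mean levels of 0.101 and 0.0253 CPM in chondroblasts that lie under 3 counts in a library. In the IGF axis 4 of 14 were higher, led by Igf1 (583 ± 83.8 against 65 ± 19.7 CPM; 3.16 ± 0.27, edgeR adjusted p = 0.000554), and 2 were lower, Igf2bp1 (90.6 ± 2.3 against 207 ± 51.9 CPM; −1.19 ± 0.24, adjusted p = 0.0173) and Igf2bp3 (−0.66 ± 0.18, adjusted p = 0.0488), which bind Igf2 mRNA. Of 8 cell cycle genes 5 were lower, Ccnb1 the most (187 against 542 CPM; −1.53 ± 0.21, edgeR adjusted p = 0.00386).

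Counts of neighbouring genes can be set against each other within a library, where scaling cancels. The log2 ratio of Igf2 to H19 ran from −0.83 to −0.45 in the 9 libraries of E11.5 and from −1.37 to −0.87 in the 9 of E13.5. The ranges did not meet, but their nearest values were close, −0.833 in E11.5 mutant 17 and −0.874 in Notum mutant C. Age, sorting, whole tissue and mouse line cannot be told apart between these sets of libraries. The ratio was −1.11 and −1.03 in epithelium, where both genes were low, and −1.16 and −1.27 in control chondroblasts, where both were high. The log2 ratio of Dlk1 to Meg3 ran from −1.43 to 0.17 at E11.5 and from 0.16 to 1.97 at E13.5, with epithelium A at the low end and control chondroblasts B at the high end. In Notum mutants it was 0.91, 1.13 and 0.76, all below the controls at 1.14 and 1.97, though mutant B was only just below control A. Of the controls, only B, at 1.97, shares the date of the mutants. These ratios compare raw counts and were not tested.

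**Figure D5:**
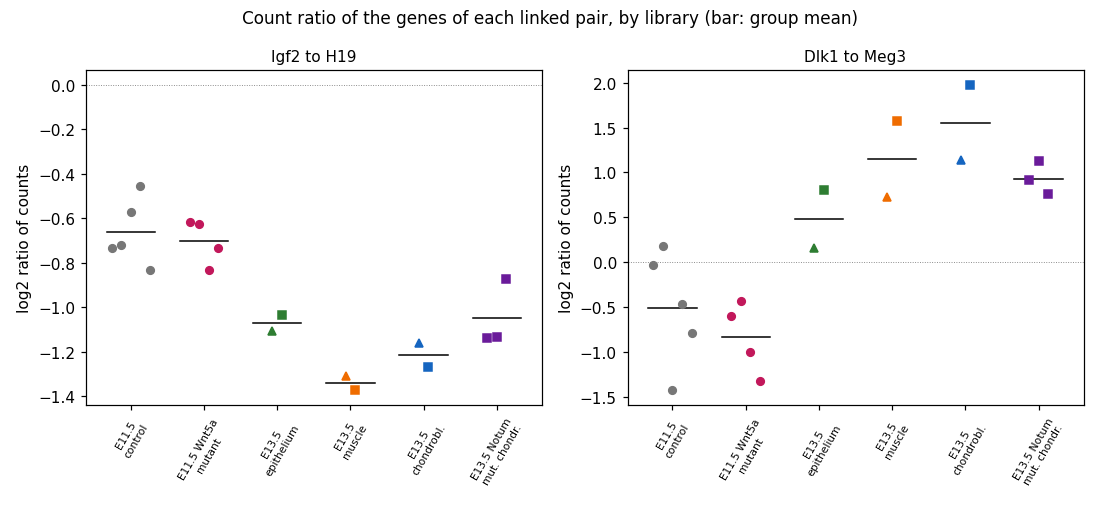
The log2 ratio of counts of Igf2 to H19 (left) and of Dlk1 to Meg3 (right) is shown for each library, with bars at group means. The Igf2 to H19 ratio is between −0.83 and −0.45 at E11.5 and lower in every E13.5 library. The Dlk1 to Meg3 ratio is higher at E13.5, touching the E11.5 range only in epithelium A. Age, sorting, whole tissue and mouse line cannot be told apart here.

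Across the 18 libraries, which include groups of different cell types, Igf2 and H19 had the most similar patterns of any 2 members (Pearson's r = 0.957 on log2 CPM, as a description), and each was the gene most like the other among 15330. Dlk1 was most like Col6a1, a collagen VI chain (r = 0.969), and came next to H19 among the members (0.933). Mest was most like Ptges, a prostaglandin E synthase (0.967), and Flt1, a VEGF receptor (0.965), and among the members closest to Peg3 (0.816). Peg3 was most like Kcp (0.946) and Mical1 (0.93), Meg3 like Zc3h12d (0.926) and Ptprd (0.906), and Plagl1 like Arl5b (0.924) and Sulf2 (0.825). Cdkn1c was most like Slc22a17 (0.961) and Pgrmc2 (0.941), and Grb10 like Ddb1 (0.919) and Xpo7 (0.909), and neither had an r above 0.562 with another member. The second genes for Igf2, H19 and Dlk1 were Acan (0.94), Ckap4 (0.957) and Tmem198b (0.963).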

How the data were processed

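The deposited table held estimated counts made by the authors from reads on mm10, with Partek and limma named in the submitters' processing notes and DESeq2 in the study's methods; the counting tool is not given in the sources used here. Poly(A)-selected cDNA was amplified with SMART-Seq v4 and had no molecular identifiers. Of 22 columns, 18 were mapped to a group by name. The other 4 could not be mapped and were not used, so each sorted group has 1 library fewer than its labels list. The column names carry none of the labels' replicate numbers, so the control genotypes could not be assigned. Of the 47248 entries, those with the same symbol were summed to 26202 symbols and rounded, since 56.0% of values were fractional.

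Genes with at least 1 CPM in over 50% of the libraries of any group in the fit were tested with the quasi-likelihood test of edgeR 4.0.16 (R 4.3.3, TMM scaling, 2-sided, Benjamini-Hochberg adjustment over all genes tested, threshold 0.05). The 3 sorted controls shared 1 fit, and the other comparisons were fitted on their own groups. The SE is the log2 fold change divided by the square root of F. Alternatives used DESeq2 1.42.0, limma 3.58.1 (voom), other scalings and filters, 1 entry per symbol, a date term, and left-out libraries. Scripts were tested on simulated counts with 200 genes changed 4-fold in each comparison. Of these, edgeR recovered 17 to 159, with 2 to 7 false calls. DESeq2 recovered 77 to 181, with 37 to 108 false calls, so a call by DESeq2 alone is weaker evidence. CPM per library were scaled over all 18 libraries. The closest replicates differed far beyond sampling noise (chi-square of 20.0 per gene), and the p-values measure only the spread between these pools. At 3 counts, the detection floor was 0.138 to 0.436 CPM, which covers counting error only. The 9 genes, the gene lists (19 paternally and 17 maternally expressed imprinted genes, 14 IGF axis genes, 9 imprint maintenance genes, cell type, stress and cell cycle genes) and the tests were chosen with earlier results of these data known. Genes outside the 9 were named from at most 3 per list, comparison and direction with the largest fold change among those called or, with none called, the 1 with the smallest p. The targeted genes Wnt5a and Notum and the 2 genes with the highest Pearson's r to each member were named too.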

Additional observations from a re-analysis of the deposited data

Results flagged for a closer look

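In the E11.5 Wnt5a mutants, H19 was 1267 CPM in mutant 13, and its nearest neighbour among the 4 mutants was 1076 CPM; the gap took 0.843 of the group's range, over Dixon's critical value of 0.829. In the same group, Peg3 was 323 CPM in mutant 17 against a nearest value of 827 CPM, a gap of 0.913 of the range. Gaps were computed for 22 groups of values, and chance gives about 1 such gap in 20.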

How the results depend on the processing

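Each comparison was refitted with DESeq2, DESeq2 size factors in edgeR, library size only, no filter on low counts, a minimum of 10 counts, limma voom, all 18 libraries in 1 fit, the highest entry per symbol and, chosen after seeing the data, totals without red cell genes. Over these settings, the number of members called moved by over 1.5 times only with DESeq2, to 1 for Notum and to 6 for E13.5 chondroblasts against E11.5 tracheas, the stage comparison. For the number of genes called, the Wnt5a comparison (2) gave 40 with DESeq2, 5 with library size only, 9 with no filter, 0 in 1 fit and 4 without red cell genes. Notum (0) gave 526 with DESeq2, 42 with no filter, 5 with voom and 9 in 1 fit. Epithelium against chondroblasts (375) gave 1554 with DESeq2, 1463 with no filter and 2961 in 1 fit, epithelium against muscle (490) gave 1827, 1620 and 3576, and muscle against chondroblasts (18) gave 254, 305 and 532, with 33 by voom. The stage comparison (1835) gave 3493 with DESeq2. The cause of these changes was not tested.

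Signs turned only for members not called. For Wnt5a, Igf2 became 0.0006 and H19 0.0542 with library size only, and H19 became 0.0401 with no filter, 0.009 with voom and 0.0035 without red cell genes. For epithelium against chondroblasts, Grb10 became −0.009 with no filter and −0.0224 with voom. Against the earlier control alone, Notum mutants differed by −0.0303 for Meg3 and by 1.056 for Cdkn1c.

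Leaving out 1 library at a time gave 0 to 3 genes called for Wnt5a, 0 to 2540 for Notum (members 0 to 4), 20 to 1038 for epithelium against chondroblasts (members 0 to 5), 162 to 1197 for epithelium against muscle (members 2 to 6), 2 to 22 for muscle against chondroblasts and 825 to 3391 for the stage comparison. A library left alone in its group was assumed to vary like the others. The members whose sign turned ranged, for Wnt5a, from −0.176 to 0.0178 for Igf2, −0.0864 to 0.0462 for H19, −0.3234 to 0.114 for Dlk1, −0.1139 to 0.3469 for Meg3, −0.2286 to 0.3347 for Cdkn1c, −0.32 to 0.0818 for Grb10 and −0.334 to 0.0123 for Peg3. For Notum they ranged from −0.0121 to 0.4319 for Meg3 and −1.3667 to 1.1888 for Cdkn1c. In epithelium against chondroblasts, Cdkn1c ranged from −2.0208 to 1.2547 and Grb10 from −0.2022 to 0.2055, and against muscle from −2.1765 to 0.0068 and from −0.1539 to 0.2676. In muscle against chondroblasts, Meg3 ranged from −0.2698 to 0.167, Cdkn1c from −0.6122 to 1.9504, Grb10 from −0.1276 to 0.0077 and Plagl1 from −0.6384 to 0.2114. In the stage comparison, Cdkn1c ranged from −0.2793 to 2.2437, Grb10 from −0.1145 to 0.0222 and Peg3 from −0.0704 to 0.3816.

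E11.5 controls and mutants share 4 numbers in their column names. Deviations of same-numbered libraries correlated at 0.513 (number 7), 0.185 (13), 0.138 (17) and 0.0891 (18). Mutants 7, 13 and 18 correlated best with the control of their own number and mutant 17 with control 16 (0.21), which hints at pairing in the data; with 1 value under 0.1 and nothing in the labels, the numbers were not taken to pair the libraries. The stress list summed to 3049 CPM in control 7 and 3895 CPM in mutant 7, the highest of the E11.5 libraries. With the replicate block, 1 gene and 0 members were called, and Igf2 became 0.0407, H19 0.0584 and Cdkn1c −0.0888. The sorted columns carry no replicate number. The term for the date pairs 1 earlier and 1 later library of each control population. It called 6 members against chondroblasts (Plagl1 in place of Igf2), 7 against muscle and 0 between muscle and chondroblasts. Over all genes it called 298, 398 and 24. With 2 libraries a group, large differences can be missed too, so a member that was not called may still differ.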
